A study of Mus musculus with 10 samples.

Results

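Expression of 8 genes of the fetal growth programme was followed over the differentiation of mouse ES cells into blood progenitors. They encode the RNA binding proteins LIN28A and LIN28B, their partner TRIM71, the chromatin proteins HMGA1 and HMGA2, and the mRNA binding proteins IGF2BP1, IGF2BP2 and IGF2BP3. The genes were chosen by symbol, and all 8 were found among the 15686 genes of the expression matrix deposited by the authors, and make up 8 of the 55487 genes of the count tables. All 8 passed the filter on low counts, which left 22596 genes to be tested.

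Nuclear RNA was sequenced from HM-1, a line of mouse ES cells made for gene targeting, and from 4 populations sorted during differentiation in serum. ES cells were undifferentiated and grown with LIF. HB cells (hemangioblast) were selected with FLK1 antibody and magnetic beads from embryoid bodies after 3 d, and were then placed in blast culture with VEGF and IL-6. After 2.5 d, HE1 (first hemogenic endothelium, KIT+ TIE2+ CD41-), HE2 (second hemogenic endothelium, KIT+ TIE2+ CD41+) and HP (hematopoietic progenitor, KIT+ TIE2- CD41+) cells were separated by FACS, so that the last 3 populations came from the same kind of culture and differ by their surface markers rather than by time. All stages derive from 1 cell line, and each has 2 libraries.

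Total counts on genes lay between 24920434 and 58782055 per library. The lowest count of any of the 8 genes in any library was 1561, for Hmga1. Levels are given as CPM, which are counts scaled to the library size after TMM normalization with edgeR, and CPM per kb is CPM divided by the summed exon length. Log2 fold changes are given ± SE. A gene passed at an adjusted p under 0.05, and was called when it also differed by at least 2-fold. Adjusted p-values come from the quasi-likelihood test of edgeR over all tested genes. Within HE1 the libraries were the least alike, with a Pearson correlation of log2 CPM across genes of 0.967 against 0.983 to 0.994 in the other stages. Replicate 2 of HE1 also held more RNA of pluripotency genes. The 6 markers of that list summed to 88.3 CPM in it and to 7.69 CPM in HE1 replicate 1, against 3099 to 3131 CPM in ES. Where a difference of the 8 genes with HE1 rests on this library, the value without it is given, and the part of the markers in these differences was not tested. In bulk samples, fewer expressing cells and less RNA per cell cannot be told apart.

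The let-7 microRNAs are absent or scarce as mature molecules in early embryonic cells and accumulate as tissues mature. LIN28A and LIN28B bind the loop of let-7 precursors, at a GGAG motif, and block their maturation. Uridylating enzymes recruited by LIN28A send the precursor to decay. Mature let-7 in turn represses mRNAs that carry sites for its seed, including those of LIN28 proteins, TRIM71, HMGA2 and the IGF2BP family, which are typical of embryonic tissues and return in tumours. In the blood system, LIN28B, HMGA2 and IGF2BP proteins are known for their part in the fetal type of hematopoiesis. Mature microRNAs were not measured in these libraries.

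The seed of let-7 defines which sites can be compared with the 8 genes. Of the 11 mature 5p sequences of the mouse family in RefSeq (GRCm38.p6), 10 have the same seed at bases 2 to 8, namely those of let-7a to let-7i, let-7k and miR-98, while let-7j differs in it. Shown are 5 of them, with the seed in capitals, to let the shared seed be compared with the sites in the target genes.
let-7a-5p: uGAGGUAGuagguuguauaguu
let-7d-5p: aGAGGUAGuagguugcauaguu
let-7g-5p: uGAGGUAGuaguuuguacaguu
let-7i-5p: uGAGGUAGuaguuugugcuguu
miR-98-5p: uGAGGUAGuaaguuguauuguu

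The precursors differ in the motif that LIN28 proteins bind. GGAG was found within the 35 bases after the 5p arm in 9 of 12 hairpins of let-7a to let-7i and miR-98. It was found in the same window in 12.8% of the 689 mouse hairpins of RefSeq that have a 5p sequence. The 3 hairpins without it were those of let-7b, let-7c-2 and miR-98. The hairpins of let-7g (chr9:106178840-106178927, plus strand) and miR-98 (chrX:151913214-151913321, plus strand) show both kinds, with the seed and, in let-7g, the GGAG in capitals.
let-7g hairpin: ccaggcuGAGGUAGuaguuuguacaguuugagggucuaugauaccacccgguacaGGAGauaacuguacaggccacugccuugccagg
miR-98 hairpin: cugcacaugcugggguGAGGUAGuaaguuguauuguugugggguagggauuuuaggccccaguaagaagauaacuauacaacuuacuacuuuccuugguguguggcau

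Matches to the seed were counted in the 3′ UTRs of protein-coding transcripts (GENCODE M21, GRCm38), taking the longest UTR of each gene. The complete match, CTACCTCA, pairs with bases 2 to 8 and has A opposite base 1. It was present in 7 of the 8 genes, and in 3.6% of 15570 tested genes with a 3′ UTR. The 8 genes were chosen as a programme known for control by let-7, so that an excess over this share follows from the choice. Long UTRs hold more matches, and the UTRs of these genes run from 1.18 to 6.34 kb. Among genes with a UTR within 20% of the same length, the share with a complete match was between 3.4% and 12.6%. Trim71 had 4 complete matches and Igf2bp1 had 3, and no more than 7 of all tested genes had 3 or more. Lin28a had 2, and Lin28b, Hmga2, Igf2bp2 and Igf2bp3 had 1 each. Hmga1 had none. When matches to bases 2 to 8 without the A (CTACCTC) and to bases 2 to 7 with the A (TACCTCA) were included, Hmga2 had 7, Trim71 had 6, Lin28b and Igf2bp1 had 5, Lin28a and Igf2bp2 had 2, and Hmga1 and Igf2bp3 had 1. In the shortest annotated UTR, Hmga1 had none and Igf2bp2 had 1, and the other 6 genes kept their number. A match describes the letters only. The complete match nearest to the stop codon is shown for each of the 7 genes on the sense strand, with 22 bases before it and the match in capitals. The sites lie at chr4:134005189-134005218 (Lin28a), chr10:45381022-45381051 (Lin28b), chr9:114512472-114512501 (Trim71), chr10:120364224-120364253 (Hmga2), chr11:95961778-95961807 (Igf2bp1), chr16:22059473-22059502 (Igf2bp2) and chr6:49086787-49086816 (Igf2bp3), all on the minus strand.
Lin28a: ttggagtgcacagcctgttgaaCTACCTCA
Lin28b: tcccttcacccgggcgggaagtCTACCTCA
Trim71: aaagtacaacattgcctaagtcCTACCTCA
Hmga2: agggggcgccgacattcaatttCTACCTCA
Igf2bp1: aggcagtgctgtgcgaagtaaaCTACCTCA
Igf2bp2: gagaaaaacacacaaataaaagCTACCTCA
Igf2bp3: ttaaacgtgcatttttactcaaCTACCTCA

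All 8 genes were expressed in each of the 10 libraries, and none was switched off on the way to HP. Per kb of exon, the lowest level in a library was 6.52 CPM per kb, for Igf2bp2 in HP, and the highest 147 CPM per kb, for Hmga2 in HE2. By stage mean, Lin28a and Trim71 were highest in ES, Hmga2 and Lin28b were lowest in ES and highest in HE2, and all 3 Igf2bp genes as well as Hmga1 were highest in HB. The fold between the highest and the lowest stage mean ran from 1.22 for Igf2bp1 to 14.4 for Hmga2. This is shown in the plot of the levels in each library.

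**Figure D1:**
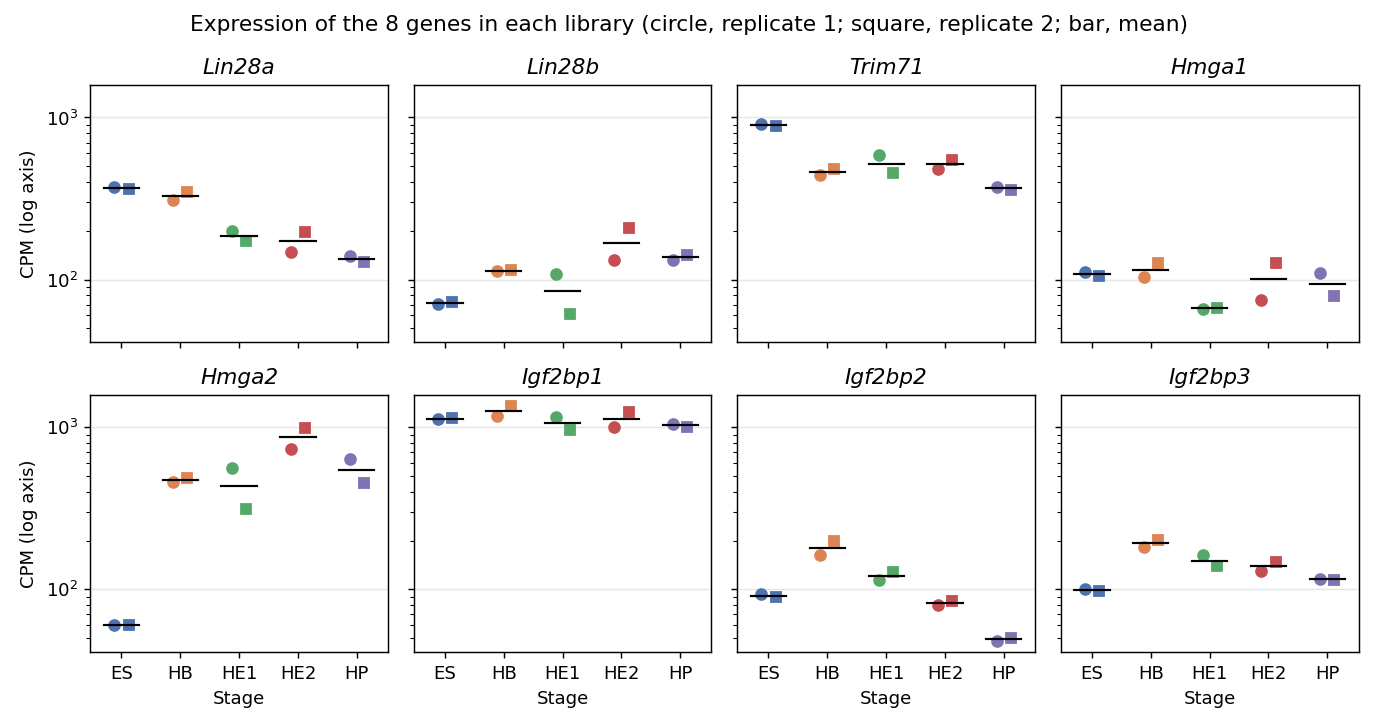
CPM on a log axis in each library of the 5 stages for the 8 genes, with a circle for replicate 1, a square for replicate 2 and a bar for their mean. Hmga2 goes from 60.3 CPM in ES to 866 CPM in HE2, Lin28a goes from 369 CPM in ES to 134 CPM in HP, and Igf2bp1 stays between 963 and 1344 CPM.

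Lin28a (ENSMUSG00000050966, GRCm38 chr4:134003330-134018841, minus strand) encodes the LIN28 protein typical of pluripotent cells. It had 374 and 364 CPM at ES, 311 and 344 at HB, 199 and 173 at HE1, 147 and 197 at HE2, and 141 and 128 at HP. Both ES libraries lay above both HB libraries, HE1 and HE2 overlapped, and HP was lowest. Between HB and HE1 its log2 level fell by 0.82 ± 0.17 (adjusted p = 0.00487). HP had 2.75-fold less than ES, with a log2 fold change of −1.46 ± 0.17 (adjusted p = 5.43e-05). These differences passed in all 17 alternative settings. Between ES and HB the difference was −0.17 ± 0.17 (adjusted p = 0.453), and the other steps did not pass either.

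Lin28b (ENSMUSG00000063804, chr10:45376620-45486395, minus strand) encodes the second LIN28 protein, which is known to act in fetal liver hematopoiesis. It had 70.8 and 72.9 CPM at ES, 112 and 114 at HB, 109 and 60.8 at HE1, 131 and 207 at HE2, and 132 and 142 at HP. The HE1 libraries were far apart, with replicate 2 below both ES libraries, and both HE2 and both HP libraries lay above every library of the earlier stages. HP had more Lin28b than ES, with a log2 fold change of 0.93 ± 0.26 (adjusted p = 0.0125). It rose from HE1 to HE2 by 1.00 ± 0.26 (adjusted p = 0.0367), a 1.998-fold difference that lies just under the 2-fold criterion. Without HE1 replicate 2 this value was 0.64 (adjusted p = 0.171), and without HE2 replicate 2 it was 0.64 (adjusted p = 0.311). Without replicate 1 or 2 of ES or without replicate 2 of HP, the difference between HP and ES no longer passed, with adjusted p from 0.0535 to 0.0635.

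Per kb of exon, Lin28a exceeded Lin28b in each library, by a ratio that was 11.99 and 11.3 at ES, 6.29 and 6.86 at HB, 4.16 and 6.43 at HE1, 2.55 and 2.16 at HE2, and 2.41 and 2.04 at HP. The libraries of ES, HB and HE2 formed separate ranges, whereas HE1 overlapped HB, and HP overlapped HE2. The ratio changed from both sides, since Lin28a was lower and Lin28b higher in HP than in ES.

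**Figure D2:**
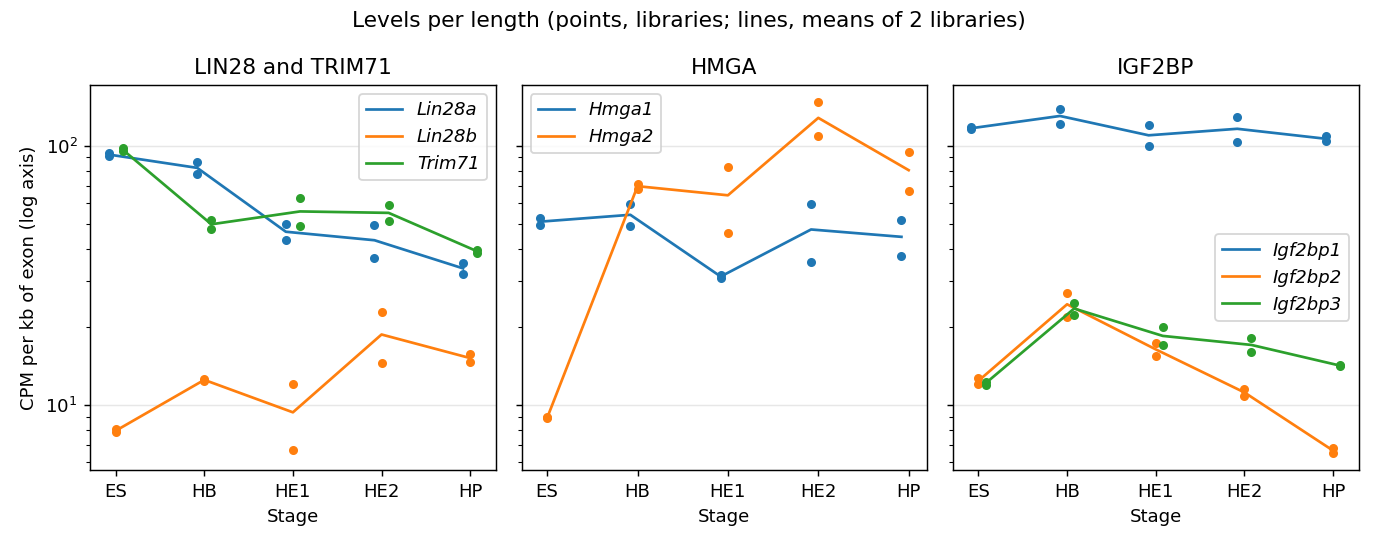
CPM per kb of exon on a log axis by stage for the LIN28 and TRIM71 genes, the HMGA genes and the IGF2BP genes, with points for libraries and lines through the means of 2 libraries. Lin28a and Lin28b come from 92.4 and 7.93 CPM per kb in ES to 33.6 and 15.1 in HP, and the lines of Hmga1 and Hmga2 cross between ES and HB.

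Trim71 (ENSMUSG00000079259, chr9:114507133-114564369, minus strand) encodes a let-7 target that binds RNA and has ubiquitin ligase activity. It had 910 and 889 CPM at ES, 445 and 483 at HB, 585 and 455 at HE1, 478 and 548 at HE2, and 370 and 359 at HP. ES stood above all other libraries and HP below them, while HB, HE1 and HE2 overlapped. It fell by 0.96 ± 0.17 on the log2 scale from ES to HB (adjusted p = 0.00119), and HP had 2.47-fold less than ES (log2 fold change −1.30 ± 0.17, adjusted p = 1.09e-04). Both passed in all 17 alternatives. HP also had less than HE1, by −0.51 ± 0.17 (adjusted p = 0.0466), which passed in 5 of 17 alternatives and was −0.29 (adjusted p = 0.189) without HE1 replicate 1.

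Hmga2 (ENSMUSG00000056758, chr10:120361275-120476469, minus strand) encodes an AT-hook protein of embryonic chromatin and is a classical let-7 target. It had 60.0 and 60.5 CPM at ES, 461 and 483 at HB, 559 and 312 at HE1, 739 and 994 at HE2, and 638 and 450 at HP. Every differentiated library lay above both ES libraries, and both HE2 libraries lay above all others. Hmga2 rose 7.83-fold from ES to HB (log2 fold change 2.97 ± 0.29, adjusted p = 2.9e-05), and was 9.03-fold higher in HP than in ES (3.18 ± 0.29, adjusted p = 1.1e-05). Both passed in all 17 alternatives. From HE1 to HE2 it rose by 0.99 ± 0.27 (adjusted p = 0.0404). That value was 0.63 (adjusted p = 0.181) without HE1 replicate 2 and 0.77 (adjusted p = 0.287) without HE2 replicate 2, and the difference passed in 10 of 17 alternatives. HB and HE1 were not told apart, with −0.12 ± 0.27 (adjusted p = 0.765), and the sign of this value turned, to 0.25 (adjusted p = 0.479), without HE1 replicate 2.

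Hmga1 (ENSMUSG00000046711, chr17:27556497-27563674, plus strand) encodes the related AT-hook protein of proliferating cells. It had 112 and 105 CPM at ES, 104 and 126 at HB, 65.6 and 67.1 at HE1, 75.2 and 126 at HE2, and 109 and 79.7 at HP. HE1 was below every other library, and the remaining stages overlapped. It fell by 0.79 ± 0.24 from HB to HE1 (adjusted p = 0.0270). This passed in 14 of 17 alternatives, and not without HB replicate 2 (−0.69, adjusted p = 0.148), HE1 replicate 1 (−0.82, adjusted p = 0.0669) or HE1 replicate 2 (−0.80, adjusted p = 0.0886). The value is uncertain because the mouse genome holds Hmga1b (ENSMUSG00000078249, chr11:120762794-120764419), a copy annotated with a single exon and counted at 55.6 to 158 CPM. Pairs that map to both were not counted, and how the rest were divided cannot be told. Hmga1b fell from HB to HE1 as well (−1.10 ± 0.26, adjusted p = 0.0106), and no longer passed without HB replicate 2 (adjusted p = 0.0705) or HE1 replicate 2 (adjusted p = 0.0742).

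Per kb, Hmga2 was at 0.169 and 0.181 of Hmga1 in ES, 1.39 and 1.20 at HB, 2.67 and 1.46 at HE1, 3.08 and 2.47 at HE2, and 1.83 and 1.77 at HP. Hmga1 thus had the higher level of the pair in ES, and Hmga2 in each library of the 4 later stages.

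Igf2bp1 (ENSMUSG00000013415, chr11:95957163-96005940, minus strand) encodes the IGF2BP protein that stabilises mRNAs such as that of MYC. It had 1122 and 1137 CPM at ES, 1175 and 1344 at HB, 1159 and 963 at HE1, 998 and 1250 at HE2, and 1050 and 1007 at HP. It was the most abundant of the 8 genes per kb in ES, HB, HE1 and HP, and passed in no comparison, with log2 fold changes between −0.25 ± 0.18 (HE1 against HB, adjusted p = 0.319) and 0.16 ± 0.18 (HB against ES, adjusted p = 0.533). The microRNA gene Mir3063 overlaps it on the same strand, and counts on Mir3063 amounted to at most 4.89% of those on Igf2bp1.

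Igf2bp2 (ENSMUSG00000033581, chr16:22059009-22163299, minus strand) encodes the member of the family that is also found in adult tissues. It had 93.8 and 89.2 CPM at ES, 162 and 199 at HB, 114 and 128 at HE1, 80.0 and 85.1 at HE2, and 48.3 and 50.2 at HP. No 2 stages overlapped, and from HB onwards each stage was below the one before. It rose by 0.98 ± 0.14 from ES to HB (adjusted p = 3.91e-04) and fell by 0.58 ± 0.14 from HB to HE1 (adjusted p = 0.0121), a difference that was −0.46 (adjusted p = 0.113) without HB replicate 2. It fell again from HE1 to HE2 by 0.55 ± 0.14 (adjusted p = 0.0353), which passed in 6 of 17 alternatives and was −0.47 (adjusted p = 0.136) without HE1 replicate 2. HP had 2.46-fold less than HE1 (−1.30 ± 0.15, adjusted p = 3.2e-04) and 1.86-fold less than ES (−0.89 ± 0.14, adjusted p = 4.77e-04), and both passed in all 17 alternatives. From HE2 to HP the difference was −0.75 ± 0.14 with an unadjusted p of 3.65e-04 and an adjusted p of 0.108. DESeq2 gave an adjusted p of 0.00117 for it.

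Igf2bp3 (ENSMUSG00000029814, chr6:49085223-49214957, minus strand) encodes the member most closely tied to fetal cells and leukaemia. It had 99.9 and 97.4 CPM at ES, 181 and 202 at HB, 162 and 138 at HE1, 130 and 148 at HE2, and 116 and 115 at HP. HB stood above all other stages, HE1 and HE2 overlapped, and HP lay between these and ES. It rose by 0.96 ± 0.14 from ES to HB (adjusted p = 4.04e-04), which passed in all 17 alternatives, and no other step passed. HP against ES gave 0.23 ± 0.14 (adjusted p = 0.203).

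Per kb, Igf2bp3 and Igf2bp2 were at a ratio of 0.966 and 0.991 in ES and of 1.01 and 0.921 in HB. At HE1 the ratio was 1.29 and 0.980, at HE2 1.47 and 1.57, and at HP 2.18 and 2.08. Igf2bp1 exceeded Igf2bp2 by 9.14 and 9.74 times in ES, 5.55 and 5.16 in HB, and 7.78 and 5.74 in HE1. The ratio was 9.5 and 11.2 in HE2 and 16.6 and 15.3 in HP.

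Counted over the 8 genes, the step from ES to HB had 3 that passed as higher (Hmga2, Igf2bp2 and Igf2bp3) and 1 as lower (Trim71). Among all tested genes 17.8% passed as higher and 22.6% as lower, and 28.8% were called in either direction against 1 of the 8, Hmga2. From HB to HE1, none passed as higher and 3 as lower (Lin28a, Hmga1 and Igf2bp2), against 17.5% and 14.8% of all genes. None of the 8 was called, against 20.9%. From HE1 to HE2, 2 passed as higher (Lin28b and Hmga2) and 1 as lower (Igf2bp2), against 6.12% and 7.11%, and none was called, against 8.64%. None of the 8 passed from HE2 to HP, where edgeR passed 0% of all genes. At an unadjusted p under 0.05, 3 of the 8 (Trim71, Hmga2 and Igf2bp2) and 7.89% of all genes were found, all 3 lower in HP. Limma-voom called 62 genes in this step and DESeq2 301, and 1 of the 8 genes, Igf2bp2, passed with DESeq2. In edgeR without the filter on low counts, Hmga2 (−0.67, adjusted p = 0.00814) and Igf2bp2 (−0.75, adjusted p = 0.00422) passed as lower in HP. Between HE1 and HP, none passed as higher and 2 as lower (Trim71 and Igf2bp2), against 11% and 13.9%, with 1 called against 16.5%. From ES to HP, 2 passed as higher (Hmga2 and Lin28b) and 3 as lower (Lin28a, Trim71 and Igf2bp2), against 24.1% and 27.5%, with 3 called (Hmga2, Lin28a and Trim71) against 38.7%. The comparisons share libraries and are not independent of each other. The counts of the 8 genes were not tested against these shares, and the plot of fold changes shows the single values.

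**Figure D3:**
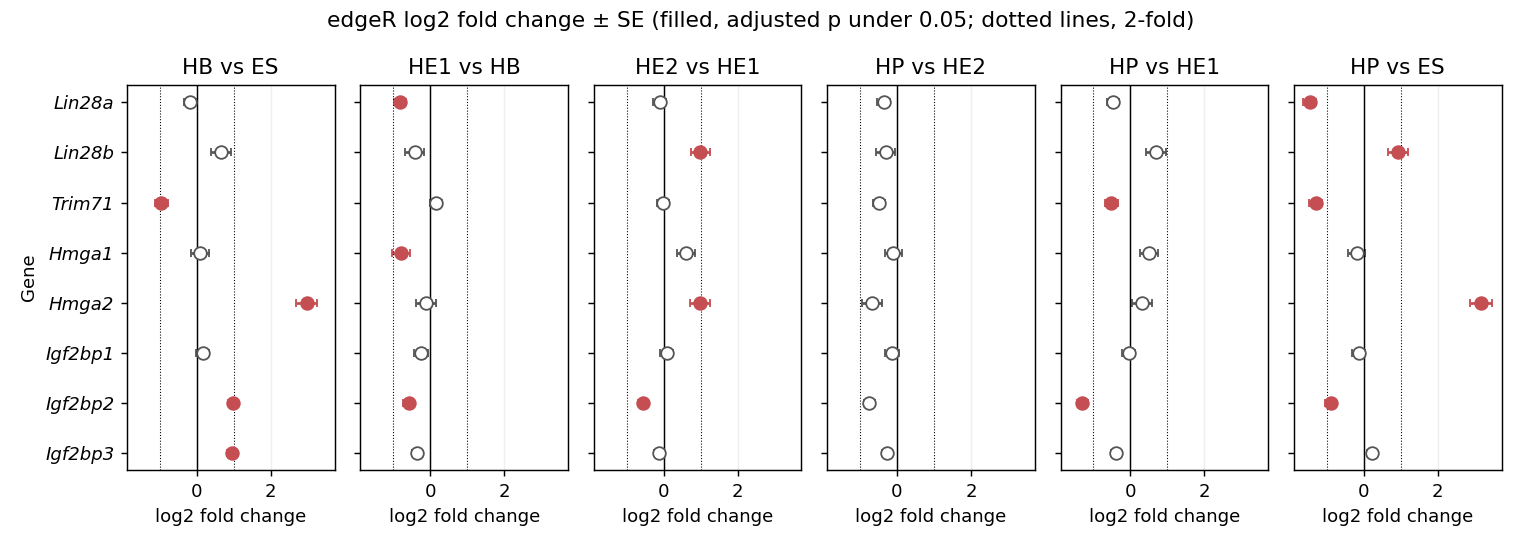
The edgeR log2 fold change ± SE of the 8 genes in 6 comparisons, filled where the adjusted p was under 0.05, with dotted lines at 2-fold. Hmga2 reaches 2.97 in HB against ES and 3.18 in HP against ES, and no gene is filled in HP against HE2.

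The let-7 loci themselves gave few counts. Summed over the 12 loci of the count tables there were between 43 and 231 counts per library, or 1.36 to 5.31 CPM. HE2 replicate 2 was lowest in both, ES replicate 1 had the highest count and HE1 replicate 2 the highest CPM. Counts on a hairpin come from the primary transcript or the precursor, and mature let-7 is too short for these libraries. The highest counts were on let-7d (284 over all libraries) and let-7a-1 (168), which share the transcript 6720427I07Rik with let-7f-1, followed by let-7i (138), let-7e (134), miR-98 (133), let-7g (128) and let-7f-1 (118). The loci of let-7f-2, let-7c-2, let-7b and let-7c-1 had 9, 6, 2 and 1, and let-7a-2 had 0. None of the 7 loci that could be tested passed in any of the 6 comparisons. The lowest adjusted p-values were 0.0664 for let-7e and 0.0677 for miR-98, both with less in HE2 than in HE1. Most of their HE1 counts were in replicate 2, with 56 against 8 for let-7e and 29 against 8 for miR-98.

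Host transcripts on the same strand gave more counts, and hosts outside the lists in use were added after their overlap with the loci was seen. The noncoding 6720427I07Rik, which holds let-7a-1, let-7d and let-7f-1, had 25.7 and 25.5 CPM at ES, 22.4 and 12.7 at HB, 21.9 and 24.6 at HE1, 16.0 and 8.09 at HE2, and 12.1 and 23.9 at HP, and did not pass in any comparison. Spaca6, the host of let-7e, was at 17.0 and 18.0 CPM in ES and at 16.3 and 82.1 in HE1, so that HE1 replicate 2 decided its stage mean. It passed as lower in HE2 than in HE1 (−2.37, adjusted p = 0.0357) and in HP than in HE1 (−2.46, adjusted p = 0.0166). Without HE1 replicate 2 these values were −0.77 (adjusted p = 0.329) and −0.86 (adjusted p = 0.223). Huwe1, a ubiquitin ligase gene that holds let-7f-2 and miR-98, fell from 1583 and 1675 CPM in ES to 919 and 1027 in HB (−0.74, adjusted p = 0.0132). Wdr82, the host of let-7g, fell from 222 and 218 to 142 and 142 CPM (−0.63, adjusted p = 0.0118). Both were also lower in HP than in ES. Neither gene passed in these comparisons when any 1 library of the compared stages was left out, with adjusted p from 0.0505 to 0.209. D630033A02Rik (let-7i), 3110039I08Rik (let-7a-2), Lncppara (let-7b and let-7c-2) and Mir99ahg (let-7c-1) stayed under 6 CPM in each library. 3110039I08Rik passed as higher in HE1 than in HB (adjusted p = 0.0495) and lower in HP than in HE1 (adjusted p = 0.0485) through HE1 replicate 2, with 5.81 CPM against 0.715 in replicate 1, and had adjusted p of 0.973 and 0.898 without that library. Mir99ahg, at 0 counts in both ES libraries, passed as higher in HE1 than in HB (adjusted p = 0.0145) and in HP than in ES (adjusted p = 0.0115). The first did not pass without HB replicate 2 (adjusted p = 0.0953), nor the second without ES replicate 1 (adjusted p = 0.0802) or HP replicate 2 (adjusted p = 0.0525). Lncppara passed as lower in HP than in ES (adjusted p = 0.0365), and did not when any 1 library of ES or HP was left out, with adjusted p from 0.0787 to 0.151.

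**Figure D4:**
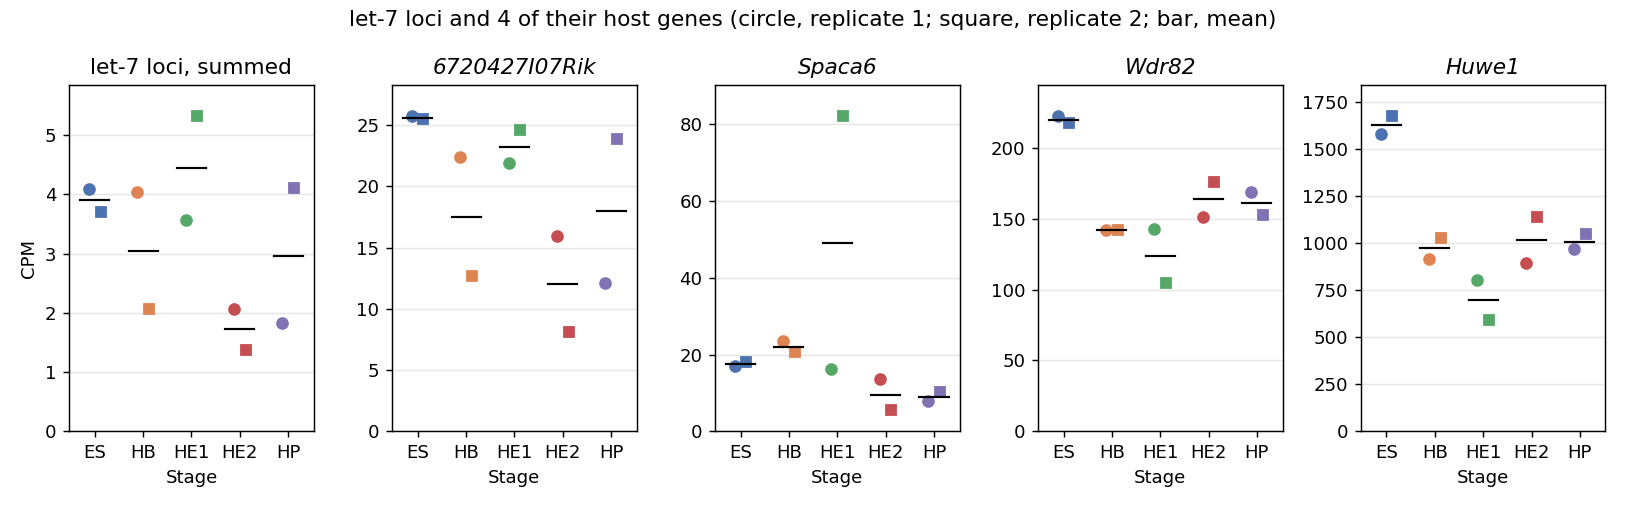
CPM by stage for the sum of the 12 let-7 loci and for 4 host genes, with a circle for replicate 1, a square for replicate 2 and a bar for the mean, each axis starting at 0. The summed loci are lowest in HE2 and highest in HE1 by stage mean, HE1 replicate 2 stands at 82.1 CPM in Spaca6, and Huwe1 and Wdr82 are highest in ES.

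Genes that make and load microRNAs passed in both directions. Of 13 genes from Drosha to Tnrc6c, 2 passed as higher and 4 as lower from ES to HB, and 2 as higher and 2 as lower from ES to HP, with medians of −0.24 and −0.18 on the log2 scale against 0.00 and −0.01 over all tested genes. Of all genes, 17.8% passed as higher and 22.6% as lower from ES to HB, and 24.1% and 27.5% from ES to HP. Those of the list lower in HB were Ago1 (−0.70), Ago3 (−0.70), Dgcr8 (−0.47) and Tarbp2 (−0.45). Those lower in HP were Drosha (−0.51) and Dgcr8 (−0.52). Of the 13, those that passed as lower from ES to HB became 1 without ES replicate 1 and 0 without ES replicate 2 or HB replicate 2, and those from ES to HP became 0 without ES replicate 1, ES replicate 2 or HP replicate 1 and 1 without HP replicate 2. Prkra, which encodes a partner of Dicer, had 7.5 and 9.2 CPM in ES and 22.7 and 28.4 in HB (1.61, adjusted p = 1.97e-04), and was still higher in HP than in ES (1.84). Ago4, an argonaute gene with 1.65 and 1.38 CPM in ES and 4.76 and 4.70 in HB, was higher in HB (1.64, adjusted p = 0.00330) and is named here although its level lies below 9 CPM. Dicer1 passed in no comparison and lay between 196 and 288 CPM.

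Of 7 genes for the decay or modification of let-7 precursors, 3 passed as higher in HB than in ES and 3 in HP than in ES, and none as lower, where 17.8% and 24.1% of all genes passed as higher. Trim25, Tent2, Khsrp and Hnrnpa1 passed in neither. Tut4 and Tut7, which encode the uridylating enzymes, and Dis3l2, which encodes the exonuclease that degrades uridylated precursors, passed in both comparisons. Tut4 rose from 103 and 98.2 CPM in ES to 255 and 260 in HB (1.35, adjusted p = 6.83e-05), and fell to 191 and 148 in HE1 (−0.61, adjusted p = 0.0118). Tut7 had 62.6 and 61.0 CPM in ES and 134 and 160 in HP (1.25, adjusted p = 1.05e-04). Dis3l2 had 17.6 and 19.6 CPM in ES and 37.0 and 37.9 in HP (1.01, adjusted p = 3.25e-04). From HB to HE1, 1 of the 7 passed as higher and 3 as lower, against 17.5% and 14.8% of all genes. The endothelial markers and the cardiac and smooth muscle markers had higher sums in HE1, and their part was not tested. Khsrp and Hnrnpa1, RNA binding proteins with roles in let-7 processing, fell from HB to HE1 (−0.71 and −0.94), as did Tut4, whereas Tut7 rose (0.62, adjusted p = 0.0146). Tut7 did not pass in this step without HB replicate 1, HB replicate 2 or HE1 replicate 1, with adjusted p from 0.0674 to 0.145. None of the 3 that fell passed in this step without HB replicate 2, with adjusted p from 0.0577 to 0.106, and Khsrp did not pass without HE1 replicate 2 (adjusted p = 0.0919). From ES to HB, Tut7 did not pass without ES replicate 1, ES replicate 2 or HB replicate 1, with adjusted p from 0.0580 to 0.0709, and Dis3l2 did not without ES replicate 1 (adjusted p = 0.0958).

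Other genes known as let-7 targets moved in both directions. Of 24 such genes outside the 8, 11 have a complete seed match in the 3′ UTR, against 3.6% of tested genes. These 24 were listed because they are known targets. From ES to HB, 11 passed as higher and 2 as lower, with a median of 0.41, against 17.8% and 22.6% of all genes. Ccnd2, which encodes cyclin D2, had 9.1 and 11.0 CPM in ES and 136 and 167 in HB (3.92), and Prtg, a surface receptor gene of the early embryo, went from 90.0 and 93.0 to 753 and 776 CPM (3.06). Myc rose from 30.3 and 31.5 to 128 and 158 CPM (2.21), and Arid3b from 65.6 and 67.9 to 162 and 176 CPM (1.34). From HB to HE1 none passed as higher and 9 as lower, with a median of −0.19, against 17.5% and 14.8% of all genes, among them Prtg (−2.24), Nr6a1 (−1.80), Myc (−1.67) and Ccnd2 (−1.44). In this step the endothelial markers and the cardiac and smooth muscle markers had higher sums in HE1 and the pluripotency markers went from 414 to 439 CPM in HB to 7.69 to 88.3 in HE1, and the part of these in the differences of the targets was not tested. From HE1 to HE2, 5 passed as higher and none as lower, led by Plagl2 (1.13), against 6.12% and 7.11% of all genes. The 5 became 1 without HE1 replicate 2, 1 without HE2 replicate 2 and 9 without HE2 replicate 1. The erythroid markers, from 263 to 541 CPM in HE1 to 1676 to 2194 in HE2, and the hematopoietic markers, from 264 to 435 to 1100 to 1547, moved in this step too, and their part was not tested. Plagl2 did not pass without HE1 replicate 2 (0.97, adjusted p = 0.0825) or HE2 replicate 2 (0.75, adjusted p = 0.0864). Between HE1 and HP, 7 passed as higher, among them Arid3a (1.27), Irs2 (1.26), Plagl2 (1.21) and Ccnd2 (1.06), and 3 as lower, which were Ccnd1, Nid2 (−1.29) and Igdcc3 (−1.25), against 11% and 13.9% of all genes. The 3 became 1 without HP replicate 1 and 2 without HP replicate 2. In HP the erythroid markers reached 2402 to 4710 CPM and the hematopoietic markers 1192 to 1489. The endothelial markers fell from 1963 to 3436 CPM in HE1 to 656 to 677 in HP. The part of these markers in the differences of the targets between HE1 and HP was not tested. Between ES and HP, 11 of the targets passed as higher and 5 as lower, with a median of 0.36, against 24.1% and 27.5% of all genes. Arid3a, a DNA binding protein of B cells and early progenitors, went from 37.6 and 41.0 CPM in ES to 351 and 268 in HP (2.98). Nid2, a basement membrane protein gene, went from 1105 and 1126 to 88.0 and 75.3 CPM (−3.77), and was already lower in HB (−2.71). Igdcc3, a gene for a surface protein of the immunoglobulin family, went from 12.1 and 10.4 to 1.85 and 1.49 CPM (−2.75). Plagl2 (1.86), Irs2 (1.77) and Ccnd2 (3.54) were higher and Ccnd1 (−1.51) lower in HP than in ES. Nr6a1, which like Trim71 and Igf2bp1 has 3 or more complete matches, went from 86.7 and 83.3 to 24.2 and 21.9 CPM (−1.88). For Ccnd1, HE2 replicate 1 had 166 CPM and replicate 2 had 34.5, beside 205 and 199 in HE1 and 39.6 and 47.6 in HP (HP against HE1, −2.21, and −2.07 with an adjusted p of 0.0979 without HP replicate 1). HE2 therefore held 1 library near HE1 and 1 near HP for this gene.

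Of 13 genes of fetal growth, mostly imprinted, 8 passed as higher and 1 as lower from ES to HB, with a median of 1.12, against 17.8% and 22.6% of all genes. The 1 lower, Igf2r, did not pass when any 1 library of ES or HB was left out, with adjusted p from 0.0744 to 0.189. From HB to HE1, 6 passed as higher and 3 as lower, against 17.5% and 14.8%. The 6 became 4 without HB replicate 1. In this step the summed endothelial markers went from 222 to 266 CPM in HB to 1963 to 3436 in HE1, beside the higher sum of the cardiac and smooth muscle markers given with the cell types, and the part of both in these differences was not tested. From HE1 to HE2 none passed as higher and 4 as lower, against 6.12% and 7.11%. The 4, led by Cdkn1c (−1.69), became 0 without HE2 replicate 2 and 7 without HE2 replicate 1. In this step the erythroid and hematopoietic markers had higher sums in HE2, as given for the targets, and their part was not tested. Between HE1 and HP, 1 passed as higher and 7 as lower, with a median of −1.75, against 11% and 13.9%. The 1 higher, Ezh2 (0.51, adjusted p = 0.0476), did not pass in 8 of the 10 fits with a library left out. Between ES and HP, 7 passed as higher and 2 as lower, against 24.1% and 27.5%. The 2 were Gpc3 (−2.35) and Igf2r (−1.17). Igf2, the fetal growth factor whose mRNA gave the IGF2BP family its name, had 41.8 and 47.7 CPM at ES, 680 and 806 at HB, 4638 and 1909 at HE1, 2323 and 958 at HE2, and 838 and 554 at HP. It rose to HB (4.05) and HE1 (2.14) and was lower in HP than in HE1 (−2.23). Without HE1 replicate 1 the last 2 values were 1.31 (adjusted p = 0.0347) and −1.43 (adjusted p = 0.0264). The first did not pass without HB replicate 1 (adjusted p = 0.0505), nor the second without HP replicate 2 (adjusted p = 0.05002). H19, the noncoding RNA beside it, followed with 27.8 and 29.5 CPM in ES, 2797 and 4036 in HE1, and 428 and 507 in HP. Mest and Peg3 were also lower in HP than in HE1 (−2.01 and −2.31), with −1.71 for Peg3 without HE1 replicate 1. Plagl1, an imprinted zinc finger gene, went from 15.3 and 14.8 CPM in HB to 201 and 96.9 in HE1 (3.31, and 2.64 without HE1 replicate 1). Grb10, an imprinted adaptor gene of the insulin pathway, had 58.1 and 58.1 CPM in ES and 229 and 320 in HP (2.24). Plag1 was lower in HE1 than in HB (−1.07). Gpc3, which encodes a glypican that restrains growth, peaked in HB at 501 and 665 CPM and had 31.2 and 49.5 in HE1 (−3.85). Endothelial markers were also lower in HP, where the 6 markers summed to 656 to 677 CPM against 1963 to 3436 in HE1, and their part in these differences was not tested. The Igf2 libraries of HE1 and HE2 overlapped, and these stages were not told apart for it (−0.996, adjusted p = 0.140).

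**Figure D5:**
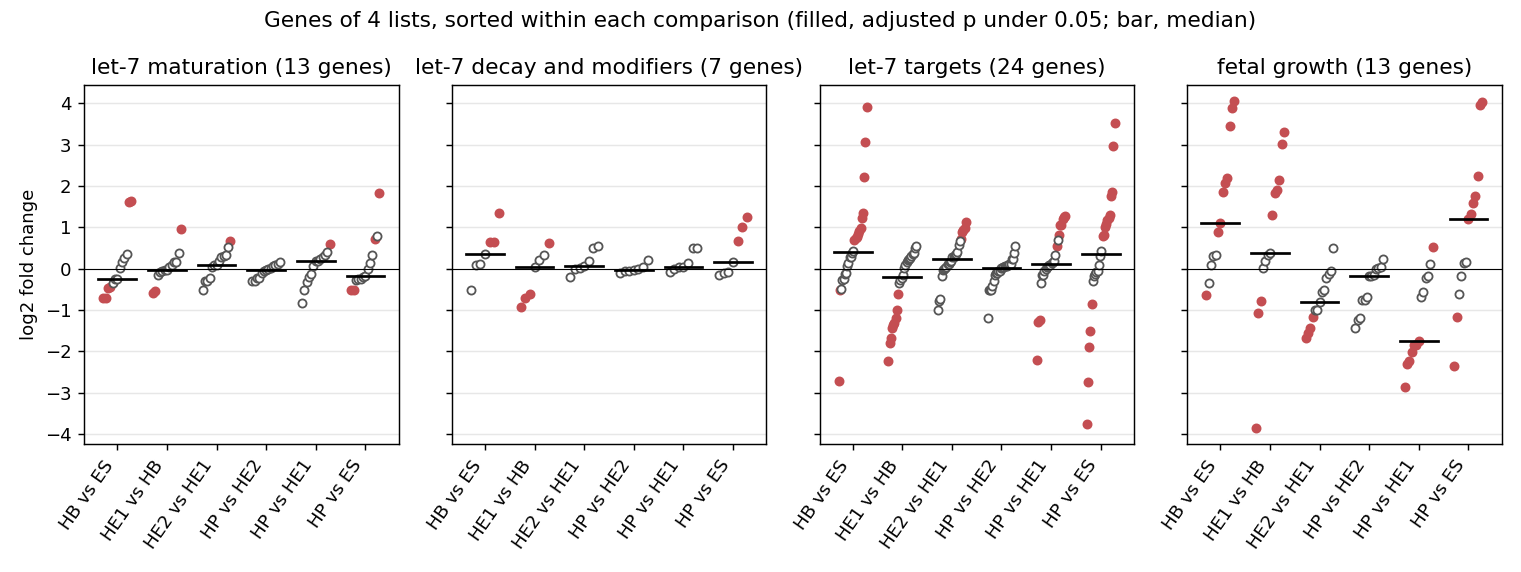
Log2 fold changes of the genes of 4 lists in 6 comparisons, filled where the adjusted p was under 0.05, with a bar at the median of the list. Genes of let-7 maturation lie on both sides of 0 with a median of −0.24 in HB against ES, and genes of fetal growth have a median of 1.12 in HB against ES and of −1.75 in HP against HE1.

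The genes whose log2 CPM over the 10 libraries was most like that of each gene, among 12235 genes with a stage mean of at least 9 CPM, are given as a description. They were Socs2 (Pearson r = 0.990), Strbp (0.989) and Scd1 (0.986) for Lin28a, and Ipo11 (0.983), Cand1 (0.980) and Elavl1 (0.975) for Lin28b. For Trim71 they were Arxes2 (0.975), Gm25745 (0.964) and G3bp2 (0.964). For Hmga2 they were Plcl2 (0.991), Vamp3 (0.990) and Mcrip1 (0.988), and for Hmga1 Gar1 (0.983), Rrp15 (0.973) and Rbm8a (0.973). For Igf2bp1, which varied least, the values were lower, with Abi2 (0.944), Gprasp2 (0.915) and the overlapping Mir3063 (0.907). Itsn1 (0.980), Faxc (0.975) and Pknox2 (0.966) were most like Igf2bp2, and Bbx (0.985), Smad4 (0.977) and Pde4dip (0.968) most like Igf2bp3. Among the 8 genes, the most alike pairs over the 10 libraries were Lin28b and Hmga2 (r = 0.775), Lin28a and Trim71 (0.727), and Igf2bp2 and Igf2bp3 (0.721). The most opposed were Trim71 and Hmga2 (−0.788). These values over 5 stages rest on few independent points and share the scaling of each library.

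Markers of the labelled cell types were checked over the stages. The 6 pluripotency markers summed to 3099 to 3131 CPM in ES, to 414 to 439 in HB and to 2.13 to 88.3 in the later stages. They fell from ES to HP, where Lin28a, Trim71 and Igf2bp2 were lower and Hmga2 and Lin28b higher, and their part was not tested. The 6 mesoderm markers were highest in HB at 1759 to 2156 CPM, and the 6 endothelial markers in HE1. The 6 hematopoietic markers went from 264 to 435 CPM in HE1 to 1100 to 1547 in HE2 and 1192 to 1489 in HP. The 6 erythroid markers went from 263 to 541 CPM in HE1 to 1676 to 2194 in HE2 and 2402 to 4710 in HP, so that erythroid RNA moved with the differences of Lin28b and Hmga2 from HE1 to HE2, and its part in them was not tested. The 5 macrophage markers stayed at or under 42.1 CPM, and the 5 endoderm markers at or under 99.3. In HE1 most of the endoderm sum was Sox17 (96.3 and 77.2 CPM), a gene that the paper links to VEGF signalling. The 5 cardiac and smooth muscle markers summed to 86.3 to 95.1 CPM in ES and to 27.98 to 29.51 in HB. Their sum was 634 to 998 CPM in HE1, 402 to 649 in HE2 and 360 to 750 in HP. Most of it in HE1 was Acta2 (403 and 569 CPM) and Tagln (211 and 350 CPM). Myl7 instead fell, from 11.5 and 16.0 CPM in HB to 0.378 and 1.42 in HE1. From HB to HE1 this sum and that of the endothelial markers rose, and those of the pluripotency and mesoderm markers fell. Lin28a, Hmga1 and Igf2bp2 differed in the same step, and the part of these markers in it was not tested. In HE1 replicate 2, Pou5f1 had 26.2 CPM against 2.82 in replicate 1.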

How the data were processed

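Nuclear RNA-seq of 10 libraries was analysed, 2 per stage, grouped by the labels. The authors removed rRNA reads with RiboDetector, trimmed with Trimmomatic, aligned with HISAT2 (v2.2.1) to mm10, and deposited a raw count per gene and library from featureCounts (v2.0.1). According to the file headers, read pairs were counted on exons of Ensembl genes, reverse stranded, with a pair over several genes counted on each, and multi-mapping reads were not counted. The authors also deposited a matrix with 1 expression score per gene and stage, a normalized CPM averaged over libraries whose columns summed to 976789 to 1028456, so that it was treated as a score, which served to find the genes and as an alternative level.

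Counts were analysed here in R (v4.3.3) with edgeR (v4.0.16). Genes were filtered with filterByExpr, library sizes scaled by TMM (factors 0.9546 to 1.131), and all 10 libraries entered 1 quasi-likelihood fit whose sole factor was stage (5 residual degrees of freedom, common biological coefficient of variation 0.226). Log2 CPM used a prior count of 2. P-values were adjusted by Benjamini-Hochberg over 22596 genes. The floor was 3 counts, or 0.0510 to 0.120 CPM per library, and covers counting error only, as no molecular identifiers were used. The paper calls the libraries of a stage biologically independent in its plot of a single gene, and the labels do not say whether they came from separate cultures, so p-values measure the spread between these libraries. That spread exceeded counting error in each stage (chi-square per degree of freedom 3.16 to 67.9), and no library was a copy of another.

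All 8 genes were named in each comparison. From each list, genes called at least 2-fold were named, up to 4 in each direction by size, with a stage mean of at least 9 CPM, and other genes named were chosen after their values were seen. The genes and lists were chosen with earlier results of these data known. The script was tested on simulated data. Alternatives were limma-voom (v3.58.1), DESeq2 (v1.42.0), no TMM scaling (total counts), no filter, only the 4 libraries compared, a replicate block, library sizes without the 20 top genes, a 4-fold threshold and leaving out each library. A count without a fold threshold was added after the data were seen. Sequences came from RefSeq (GRCm38.p6) and from the GRCm38 genome with GENCODE M21. Protein sequences were not used here. Tables and figures were made in Python (v3.11.15) with matplotlib (v3.10.9) and pandas (v2.3.3).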

Additional observations from a re-analysis of the deposited data

How the results depend on the processing

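The 48 differences of single genes between stages gave 816 values under 17 alternatives, of which 716 kept direction and side of the threshold, 43 no longer passed, 32 newly passed and 25 turned in sign. Under alternatives, the number of the 8 genes called from ES to HB, 1 in the fit used, was 3 with total counts and 2 without the filter or with only the 4 libraries compared, and 1 to 3 when a library was left out. From HE1 to HE2, 0 became 2 with limma-voom, without the filter or with library sizes without the 20 top genes, 1 with the replicate block, and 0 to 2 with a library left out. From HE1 to HP, 1 became 0 at 4-fold and 1 to 2 with a library left out, and from ES to HP 3 became 1 at 4-fold. Without a fold threshold, the counts were 4, 3, 3, 2 and 5 for HB against ES, HE1 against HB, HE2 against HE1, HP against HE1 and HP against ES. The deviations of same-numbered libraries correlated between −0.316 and 0.213, so that no common pairing by replicate number was seen. This cannot tell whether libraries of different stages came from shared cultures, which may carry different numbers. With the replicate block, Lin28b from HE1 to HE2 had an adjusted p of 0.0540, Igf2bp2 0.0513, and Trim71 from HE1 to HP 0.0826. The stage levels in the matrix of the authors were 1.025 to 1.122 times the CPM given here, a shift of at least 1 SD in 24 of 40 levels, and the highest and the lowest stage were the same for all 8 genes.

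Over all genes, the calls at 4-fold were 4029, 2594, 900, 2086 and 5730 in the same order. From HE1 to HE2, 1953 calls became 3818 without the filter and 535 with only the 4 libraries compared, and from HE2 to HP, 0 became 62 with limma-voom, 301 with DESeq2 and 534 without the filter. With a library left out, all calls ranged from 4792 to 7230 (HB against ES), 2804 to 5553 (HE1 against HB), 420 to 4295 (HE2 against HE1), 0 to 526 (HP against HE2), 1905 to 5460 (HP against HE1) and 7096 to 9486 (HP against ES). The lowest for HE2 against HE1 was without HE2 replicate 2 and the highest without HE1 replicate 1. The cause of these shifts was not tested.

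Signs turned only for differences that had not passed. Trim71 from HE1 to HE2 became 7.65e-05 without the filter and 0.0041 with library sizes without the 20 top genes, and Igf2bp1 in that step became −0.0058 with total counts. With a library left out, log2 values ranged from −0.055 to 0.25 for Hmga1 (HB against ES), from −0.073 to 0.34 for Trim71 and −0.64 to 0.25 for Hmga2 (HE1 against HB), from −0.32 to 0.11 for Lin28a, −0.19 to 0.20 for Trim71, −0.075 to 0.26 for Igf2bp1 and −0.23 to 0.030 for Igf2bp3 (HE2 against HE1), from −0.60 to 0.067 for Lin28b, −0.42 to 0.33 for Hmga1 and −0.28 to 0.047 for Igf2bp1 (HP against HE2), from −0.039 to 0.83 for Hmga2 and −0.17 to 0.12 for Igf2bp1 (HP against HE1), and from −0.44 to 0.017 for Hmga1 (HP against ES).

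With 2 libraries per stage, a library left out leaves its stage with 1, which is assumed to vary like the others. Stages were compared in nuclear RNA, which does not measure protein or mature microRNA.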

Other observations

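Receptors and adaptors of the IGF and insulin pathway, which are on the lists of let-7 targets or, for Igf2r, of fetal growth genes, were chosen here after their values were seen. Igf1r, the receptor for IGF2, had 143 and 152 CPM at ES, 189 and 211 at HB, 199 and 205 at HE1, 216 and 289 at HE2, and 305 and 286 at HP, and was higher in HP than in ES (1.00 on the log2 scale, edgeR adjusted p = 0.000482). Irs2, an adaptor of both receptors, had 110 and 114 CPM in ES and 411 and 353 in HP (1.77). By stage mean both were highest in HP. Insr, the insulin receptor gene, had 112 and 121 CPM at ES, 198 and 217 at HB, 158 and 115 at HE1, 168 and 167 at HE2, and 154 and 157 at HP, was highest in HB, and did not pass between HP and ES (0.42, adjusted p = 0.0508). Igf2r, which removes IGF2, was lower in HP than in ES (−1.17), with 828 and 615 CPM in HE1 and 190 and 211 in HP.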
